A study of Mus musculus with 12 samples.

Results

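A set of 10 genes for receptors and surface markers of macrophages was followed in oral carcinomas of mice and in their local recurrences. They are Vsig4, Mrc1, Cd163, Ms4a6d, Ms4a7, Clec4d, Csf1r, Msr1, Cd68 and Emr1, and every probe that the platform annotation assigns to them was taken. The annotation names 18 probes for 9 of the 10 genes, out of 45135 probes on the array. Emr1 is called Adgre1 today, and Cd68 was not analysed here because no probe carried its symbol. The list was chosen by results of the same arrays: Vsig4 was selected on its ratio of recurrent to primary tumor, the highest on average among genes that were at least 2-fold higher in at least 3 of 5 pairs, and Clec4d on a ratio among the highest. The other genes were added as known macrophage receptors with those results in view, and which further values were consulted is not recorded. All their values are therefore a description, given without a test.

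Recurrent tumors, primary tumors and SCC-7 cells were compared on Illumina whole genome arrays. Both tumor groups began as murine SCC-7 carcinoma cells, cultured in MEM with FCS and injected into the floor of the mouth of BALB/c-nu mice. The 5 recurrent tumors grew locally after the 5 primary tumors had been removed by microsurgery, so both tumors of a pair come from 1 animal. Tumors with the same number in the sample titles were taken here as such a pair. The 2 SCC-7 arrays hold RNA of the line itself. All samples rest on 1 cell line, and no source says whether the 2 SCC-7 samples were separate cultures. BALB/c-nu mice lack a functional thymus and so most mature T cells, but they keep macrophages, B cells and NK cells. The age and sex of the mice are not given in the sources used here.

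Macrophages in tumors descend from circulating monocytes and from cells resident in the tissue, and their survival depends on signals through the receptor that Csf1r encodes. Scavenger and lectin receptors on their surface take up modified lipoproteins, glycoproteins, haemoglobin complexes and microbial or dying-cell debris, and Vsig4 binds fragments of complement component C3 on opsonised particles. Vsig4, Mrc1 and Cd163 are best known from resident and alternatively activated macrophages, whereas Adgre1 and Csf1r mark mouse macrophages broadly.

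Of the 18 probes, 14 were detected on at least 2 of the 12 arrays, and 18454 of all probes were. The other 4 probes, 1 each for Cd163 and Msr1 and 2 for Ms4a7, were detected on 0 arrays, and each of these genes was read by another probe. Levels are log2 intensities after background correction and quantile normalization, on which 1 unit is a 2-fold difference. Probes differ in brightness for technical reasons, so levels are compared between arrays for 1 probe and never between genes. Where a gene had several kept probes, the brightest one stands for it. The array holds RNA of whole tissue, in which more macrophages and more receptor RNA in each macrophage cannot be told apart. In p-values against SCC-7 cells, the spread of that group may be technical only. Primary tumor 3 stood apart from the other tumors by high levels of lymphoid markers, so mean differences are also given without pair 3.

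The promoters of Vsig4, Mrc1, Cd163, Clec4d and Ms4a7 are printed, as those of the measured genes that were read from the RefSeq table, to show which hold the core of a binding site common in macrophage genes. Each runs from 250 bases before to 50 bases after the RefSeq start (GRCm38.p6). Capitals mark GAGGAA or its reverse complement TTCCTC, the core of the site bound by PU.1, the transcription factor on which the macrophage lineage depends. Vsig4 lies at chrX:96293389-96293688 on the minus strand, Mrc1 at chr2:14229164-14229463 on the plus strand, Cd163 at chr6:124304401-124304700 on the plus strand, Clec4d at chr6:123261857-123262156 on the plus strand and the first of 2 promoters of Ms4a7 at chr19:11336097-11336396 on the minus strand.
Vsig4: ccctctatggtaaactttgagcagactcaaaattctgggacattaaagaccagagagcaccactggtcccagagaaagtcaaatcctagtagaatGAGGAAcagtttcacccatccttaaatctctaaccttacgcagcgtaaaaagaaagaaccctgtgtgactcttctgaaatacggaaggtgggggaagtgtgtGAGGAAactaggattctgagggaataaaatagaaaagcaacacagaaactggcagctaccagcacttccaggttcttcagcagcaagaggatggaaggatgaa
Mrc1: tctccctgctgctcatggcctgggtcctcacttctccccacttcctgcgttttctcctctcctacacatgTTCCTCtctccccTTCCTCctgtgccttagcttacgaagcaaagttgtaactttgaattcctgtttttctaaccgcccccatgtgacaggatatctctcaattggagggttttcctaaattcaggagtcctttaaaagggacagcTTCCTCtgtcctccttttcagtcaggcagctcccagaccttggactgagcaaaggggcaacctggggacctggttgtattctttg
Cd163: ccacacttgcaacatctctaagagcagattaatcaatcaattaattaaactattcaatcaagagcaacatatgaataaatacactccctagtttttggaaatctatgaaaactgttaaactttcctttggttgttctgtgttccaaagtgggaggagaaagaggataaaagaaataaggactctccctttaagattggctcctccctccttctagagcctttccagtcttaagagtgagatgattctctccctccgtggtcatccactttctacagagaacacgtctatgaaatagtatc
Clec4d: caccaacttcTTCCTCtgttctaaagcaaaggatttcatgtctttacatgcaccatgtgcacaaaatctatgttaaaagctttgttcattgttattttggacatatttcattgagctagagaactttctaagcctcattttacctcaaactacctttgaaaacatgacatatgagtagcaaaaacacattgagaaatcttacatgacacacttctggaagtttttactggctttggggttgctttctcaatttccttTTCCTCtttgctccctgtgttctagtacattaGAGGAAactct
Ms4a7: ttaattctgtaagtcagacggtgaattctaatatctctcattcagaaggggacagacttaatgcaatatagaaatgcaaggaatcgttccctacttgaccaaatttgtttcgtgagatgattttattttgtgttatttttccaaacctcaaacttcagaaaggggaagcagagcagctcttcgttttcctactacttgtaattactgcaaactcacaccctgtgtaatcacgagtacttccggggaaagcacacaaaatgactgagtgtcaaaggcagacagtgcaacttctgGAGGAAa
The core was present on either strand 2 times in the window of Vsig4, 3 times in that of Mrc1, 3 times in that of Clec4d and 1 time in that of Ms4a7. It was in 5 of the 7 promoters searched, which belong to these 5 genes and Cd68, with 0 copies in Cd163 and in the second promoter of Ms4a7, and in 28.3% of 32851 mouse promoters of the same length. The AP-1 site TGAGTCA was in 5.2% of all promoters and, among these 7, only in that of Cd68, which held 2 copies. A match of letters is a description and does not show that a factor binds there. The promoter of Csf1r was not searched.

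Vsig4, the complement receptor of resident macrophages also known as CRIg, was the one of the 9 genes with the largest mean difference between the tumor groups. Its level (probe ILMN_1241350) was 7.47, 10.92, 7.76, 9.54 and 9.56 in recurrent tumors 1 to 5, against 5.87, 5.46, 4.58, 8.39 and 8.63 in primary tumors 1 to 5 and 4.66 and 4.42 in SCC-7 cells. Every recurrence lay above its own primary tumor, but the groups overlapped, since primary tumors 4 and 5 were brighter than recurrences 1 and 3. Primary tumor 3 and both SCC-7 arrays were not above the negative controls, so the ratio of pair 3 is known less well. As deposited, before any correction, the intensity was 2040 in recurrence 2 and 95.4 in its primary tumor, against 69.9 and 62.9 in SCC-7 cells.

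The mean level of Vsig4 was 9.05 ± 1.43 in recurrent and 6.58 ± 1.82 in primary tumors (SD, n = 5 each). The mean difference within pairs was 2.46 (SE of the 5 pair differences 0.85, as for SE of the other genes), or 5.52-fold. Pair 2 gave by far the widest step, 5.46, followed by 3.18 in pair 3, 1.60 in pair 1, 1.15 in pair 4 and 0.93 in pair 5. Without pair 2 the mean difference was 1.71, and without pair 3 it was 2.29. The size of the difference thus rested in part on 1 animal. The direction was the same in 5 of 5 pairs, but Vsig4 was selected on these same pairs, so nothing is read from that.

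Clec4d, a C-type lectin of myeloid cells that recognises mycobacterial glycolipid, had the next largest mean difference of the 9 genes. Its level (ILMN_2705628) was 7.31, 8.67, 7.73, 6.63 and 9.01 in recurrent tumors 1 to 5, against 6.01, 5.99, 5.76, 7.02 and 6.96 in primary tumors 1 to 5 and 4.89 and 4.54 in SCC-7 cells. It was higher in 4 of 5 recurrences, each by over 2-fold, and lower in recurrence 4, the only recurrence within the range of the primary tumors. Means were 7.87 ± 0.98 in recurrent and 6.35 ± 0.59 in primary tumors (SD, n = 5 each), a difference of 1.52 (SE 0.53) or 2.87-fold, and 1.41 without pair 3. Both SCC-7 arrays were not above the negative controls.

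**Figure D1:**
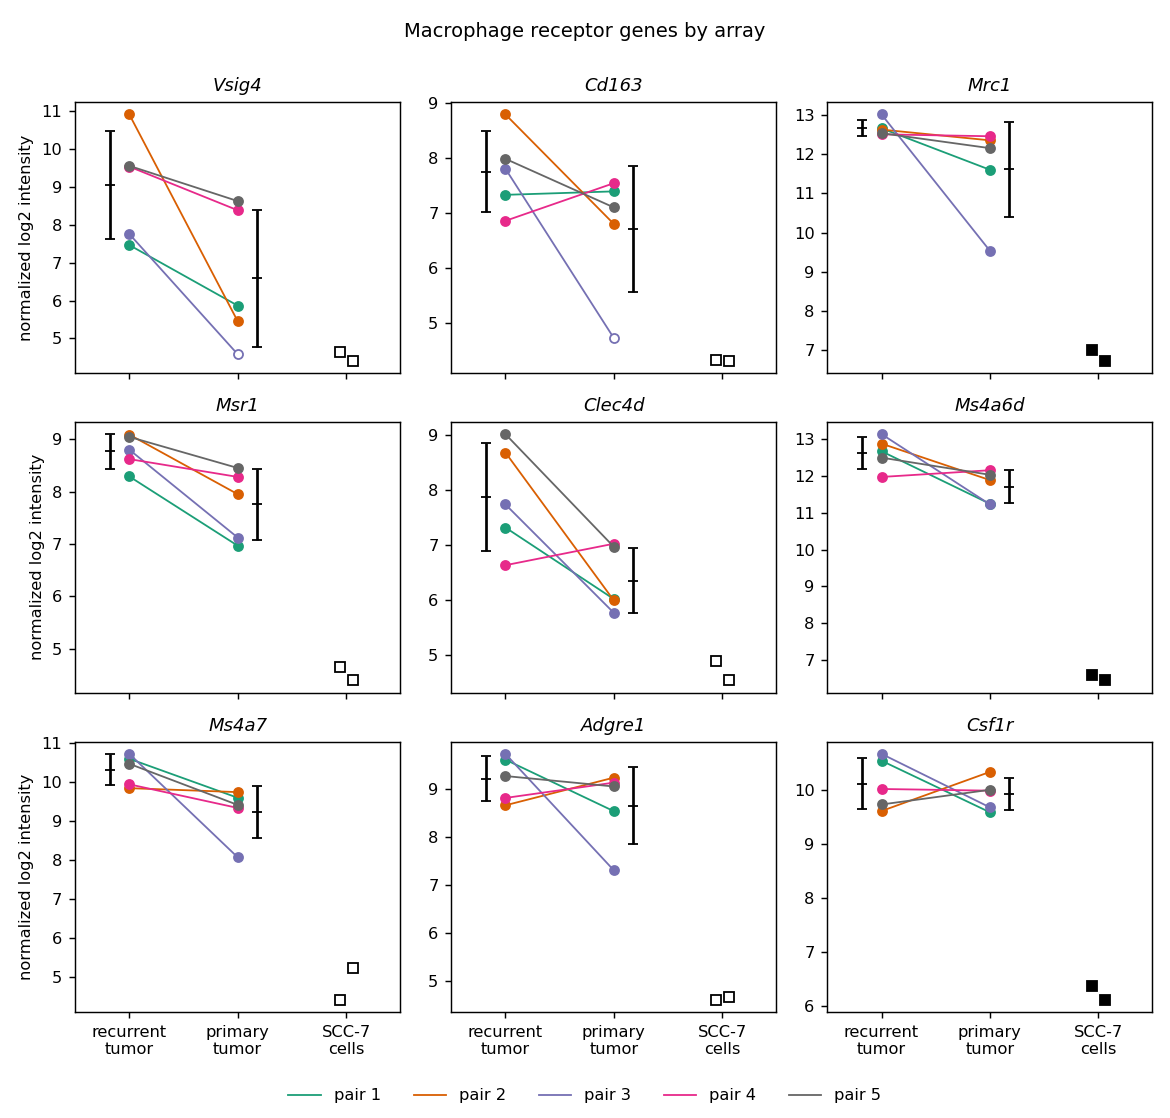
Normalized log2 intensity of the 9 macrophage receptor genes on each array, with recurrent tumors, primary tumors and SCC-7 cells from left to right, a coloured line for each of the 5 animals, and bars for the mean ± SD of each tumor group. Open symbols were not above the negative controls. All tumors lay above both SCC-7 arrays except primary tumor 3 for Vsig4, at 4.58 against 4.66, and primary tumor 3 had the lowest level of 7 of the 9 genes.

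Among the scavenger receptors, Mrc1, the mannose receptor CD206, was uniformly high in the recurrences. Its level (ILMN_1239430) was 12.65, 12.62, 13.01, 12.50 and 12.53 in recurrent tumors 1 to 5, against 11.60, 12.35, 9.53, 12.45 and 12.15 in primary tumors 1 to 5 and 7.00 and 6.74 in SCC-7 cells. The lowest recurrence was brighter than the brightest primary tumor, though by little, and primary tumor 3 was far below the rest. Means were 12.66 ± 0.20 in recurrent and 11.62 ± 1.21 in primary tumors (SD, n = 5 each). The mean difference of 1.05 (SE 0.63) was 0.44 without pair 3, so most of it came from that animal.

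Msr1, the class A scavenger receptor for modified lipoproteins, was higher in all 5 recurrences than in their primary tumors. Its level (ILMN_2449412) was 8.29, 9.09, 8.80, 8.62 and 9.04 in recurrent tumors 1 to 5, against 6.97, 7.95, 7.12, 8.28 and 8.45 in primary tumors 1 to 5 and 4.65 and 4.39 in SCC-7 cells. Only primary tumor 5 reached into the range of the recurrences. The mean was 8.77 ± 0.33 in recurrent and 7.75 ± 0.67 in primary tumors (SD, n = 5 each). The difference of 1.01 (SE 0.24) was 0.85 without pair 3 and at most 1.18 without another pair.

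Cd163, the receptor for complexes of haemoglobin and haptoglobin, did not move one way. Its level (ILMN_2964560) was 7.32, 8.79, 7.80, 6.85 and 7.98 in recurrent tumors 1 to 5, against 7.39, 6.80, 4.72, 7.54 and 7.10 in primary tumors 1 to 5 and 4.32 and 4.31 in SCC-7 cells. It was higher in recurrences 2, 3 and 5 and lower in 1 and 4, and primary tumor 3 was not above the negative controls. The mean was 7.75 ± 0.73 in recurrent and 6.71 ± 1.15 in primary tumors (SD, n = 5 each). The difference of 1.04 (SE 0.68) was 0.53 without pair 3.

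Ms4a7 and Ms4a6d belong to a family of tetraspan membrane proteins of myeloid and lymphoid cells, and both are expressed by macrophages. The level of Ms4a7 (ILMN_3091003) was 10.60, 9.85, 10.73, 9.94 and 10.47 in recurrent tumors 1 to 5, against 9.60, 9.74, 8.07, 9.34 and 9.42 in primary tumors 1 to 5 and 4.41 and 5.22 in SCC-7 cells. Every recurrence was above every primary tumor, with recurrence 2 only just above its own. Means were 10.32 ± 0.40 in recurrent and 9.23 ± 0.67 in primary tumors (SD, n = 5 each), and the difference of 1.08 (SE 0.43) was 0.69 without pair 3. A dimmer second probe (ILMN_3019158), detected on 5 of 12 arrays, gave 0.63 and was higher in all 5 recurrences. On that probe the groups overlapped, since the lowest recurrence was at 5.08 and the brightest primary tumor at 5.27.

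Ms4a6d (ILMN_1241695) was at 12.67, 12.88, 13.13, 11.97 and 12.50 in recurrent tumors 1 to 5, against 11.24, 11.89, 11.23, 12.15 and 12.03 in primary tumors 1 to 5 and 6.60 and 6.45 in SCC-7 cells. Recurrence 4 was below its own primary tumor and was the only recurrence to overlap with them. Means were 12.63 ± 0.44 in recurrent and 11.71 ± 0.44 in primary tumors (SD, n = 5 each), a difference of 0.92 (SE 0.36), or 0.67 without pair 3. A second probe (ILMN_2602352) was higher in all 5 recurrences, by 1.09 on average. On that probe the groups did not overlap, since the lowest recurrence was at 9.10 and the brightest primary tumor at 9.05.

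The 2 genes used most widely to mark mouse macrophages differed least. Adgre1 encodes an adhesion G protein-coupled receptor long used as a surface antigen of mouse macrophages, and its level (ILMN_1216880) was 9.62, 8.67, 9.74, 8.82 and 9.28 in recurrent tumors 1 to 5, against 8.55, 9.24, 7.31, 9.14 and 9.06 in primary tumors 1 to 5 and 4.61 and 4.67 in SCC-7 cells. Apart from primary tumors 1 and 3, the primary tumors lay within the range of the recurrences. Means were 9.23 ± 0.47 in recurrent and 8.66 ± 0.80 in primary tumors (SD, n = 5 each), and the difference of 0.56 (SE 0.54) was 0.10 without pair 3. Its other kept probes gave 0.61 and 0.87, but each was higher in only 2 of 5 recurrences, those of pairs 1 and 3.

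Csf1r encodes the receptor kinase for CSF1 and IL-34. Its level (ILMN_2710819) was 10.54, 9.61, 10.67, 10.02 and 9.73 in recurrent tumors 1 to 5, against 9.59, 10.33, 9.68, 9.99 and 10.00 in primary tumors 1 to 5 and 6.38 and 6.12 in SCC-7 cells. It was higher in 3 of 5 recurrences and the ranges overlapped almost fully. Means were 10.11 ± 0.47 in recurrent and 9.92 ± 0.30 in primary tumors (SD, n = 5 each), and the difference of 0.20 (SE 0.34) was -0.0026 without pair 3. A second probe (ILMN_1230485) gave 0.54. The direction for Csf1r was therefore not settled by these arrays, and whether its difference is smaller than that of Vsig4 was not tested.

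**Figure D2:**
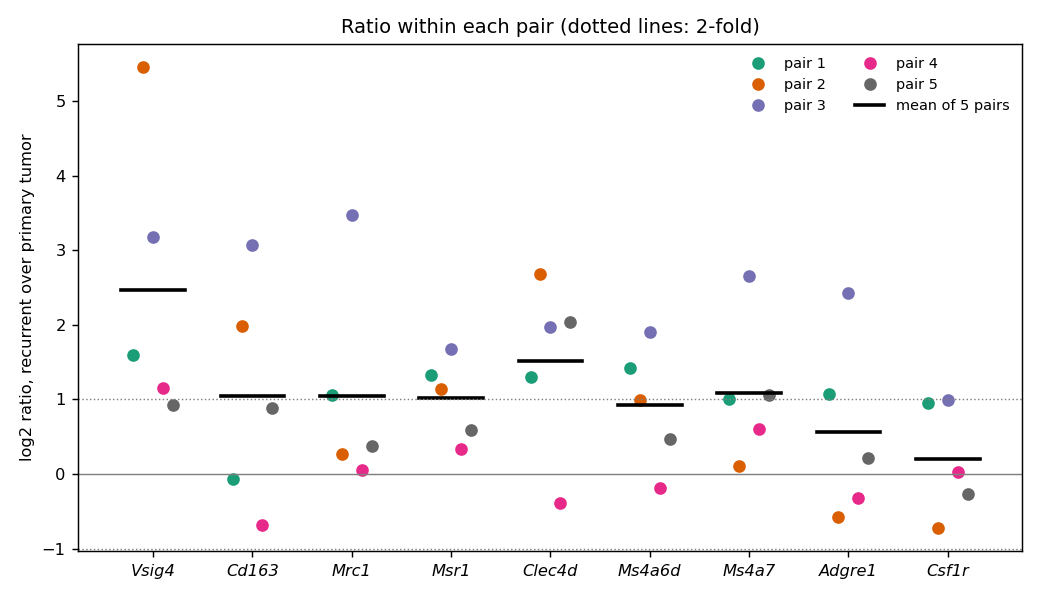
Log2 ratio of the recurrent over the primary tumor in each of the 5 pairs for each gene, with a black bar at the mean of the pairs and dotted lines at 2-fold. Points of pair 3 are highest for 7 of the 9 genes, Vsig4 in pair 2 is the widest at 5.46, and points of pair 4 lie between -0.68 and 1.15.

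Counted by animal, 8, 7, 9, 5 and 8 of the 9 genes were higher in the recurrence of pairs 1 to 5, and 7, 4, 8, 1 and 2 of them by at least 2-fold. Over all kept probes 65.3%, 51.5%, 57.0%, 50.3% and 44.9% were higher in the recurrence of pairs 1 to 5, and 5.12%, 3.84%, 13.9%, 1.79% and 3.81% by at least 2-fold. The median difference over the 9 genes was 1.07, 0.99, 2.43, 0.03 and 0.59 in pairs 1 to 5, where all kept probes had medians of 0.21, 0.02, 0.12, 0.00252 and -0.04. The pairs thus differed widely, with pair 3 at one end and pair 4, in which both tumors had similar levels, at the other. Over all 5 pairs the median of the mean differences was 1.04, beside 0.03 over all kept probes.

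In the paired limma fit, 0% of 18454 kept probes were called higher in recurrent tumors with an adjusted p below 0.05. Among all probes the smallest adjusted p was 0.933, with 456 probes higher and 146 lower at an unadjusted p under 0.05, and 3 probes were called higher without pair 1. By the rule of at least 2-fold higher in at least 3 of 5 pairs, 4 of the 9 genes passed (Vsig4, Clec4d, Ms4a7 and Msr1), where 1.00% of kept probes did. Without pair 1 or without pair 3 only Vsig4 and Clec4d passed, with 3 of the remaining pairs still required. In 2 genes, Mrc1 and Ms4a7, every recurrence was above every primary tumor on the brightest probe, where 0.260% of kept probes did so. Nothing is read from these counts, since the genes were picked on the same contrast.

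Tumor 3 of the primary group stood apart in other ways. It held the lowest level of 7 of the 9 receptor genes, with a mean of -1.81 standard deviations over them, against 0.92 in its recurrence, the highest of the 10 tumors. Markers of lymphoid cells were highest there: the mean level of the B cell list (2 of 5 genes measured) was 12.85 in primary tumor 3 and at most 8.26 in the other tumors, and that of T and NK cells (7 of 11 genes) was 10.22 against at most 7.08. Its neutrophil list (7 of 10 genes) stood at 8.15, against at most 7.09 elsewhere. In SCC-7 cells the B cell list was at 4.46 and 4.74 and the T and NK cell list at 5.34 and 5.26. The part of these cells in the low receptor levels of that tumor was not tested. Salivary gland markers also varied. Their list mean (9 of 9 genes) was at 5.54 in recurrence 1 and 13.82 in its primary tumor, and between 10.89 and 12.36 in the other recurrences against 8.33 to 12.43 in the other primary tumors.

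**Figure D3:**
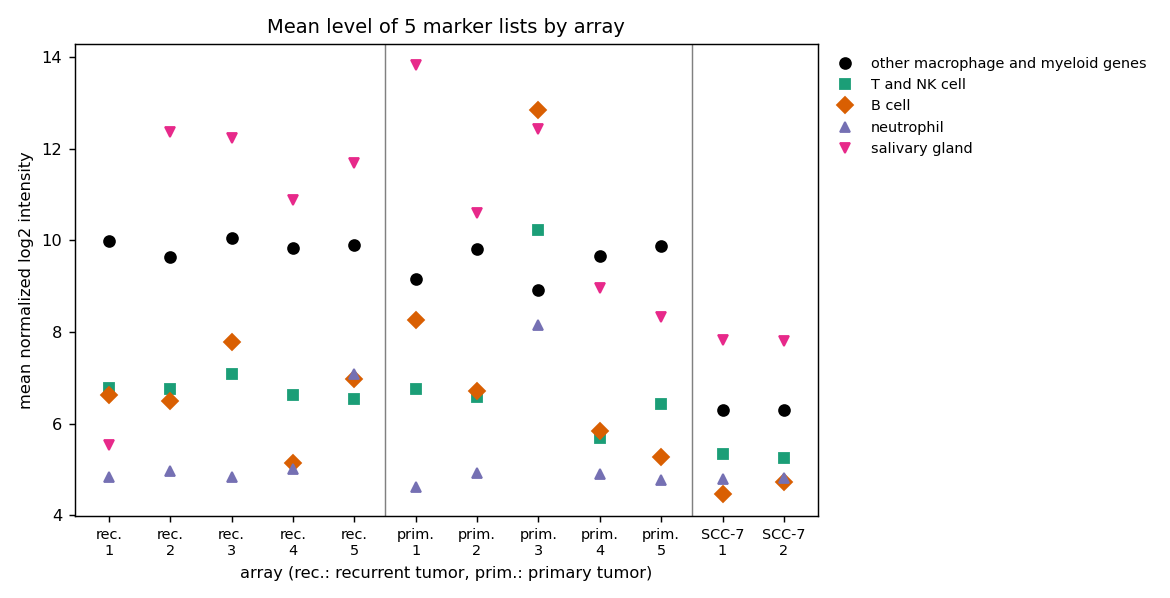
Mean normalized log2 intensity of 5 lists of marker genes on each array, with recurrent tumors on the left, primary tumors in the middle and SCC-7 cells on the right. Primary tumor 3 has the highest B cell (12.85), T and NK cell (10.22) and neutrophil (8.15) means and the lowest mean of other macrophage genes among the tumors (8.92).

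The 9 genes tended to rank the 10 tumors alike. Over the 36 pairs of genes the median Pearson r was 0.70, from 0.91 between Mrc1 and Adgre1 to -0.12 between Vsig4 and Csf1r, with 2 pairs below 0. Vsig4 ran closest to Msr1 (0.87) and Clec4d (0.81). Without primary tumor 3 the median r was 0.55 and 5 pairs were below 0. All these values come from the same arrays, so the correlations describe 10 tumors of 5 animals and share their tissue makeup. Recurrence 3 was highest for 5 genes, recurrence 2 for 3 (Vsig4, Cd163 and Msr1) and recurrence 5 for 1 (Clec4d).

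**Figure D4:**
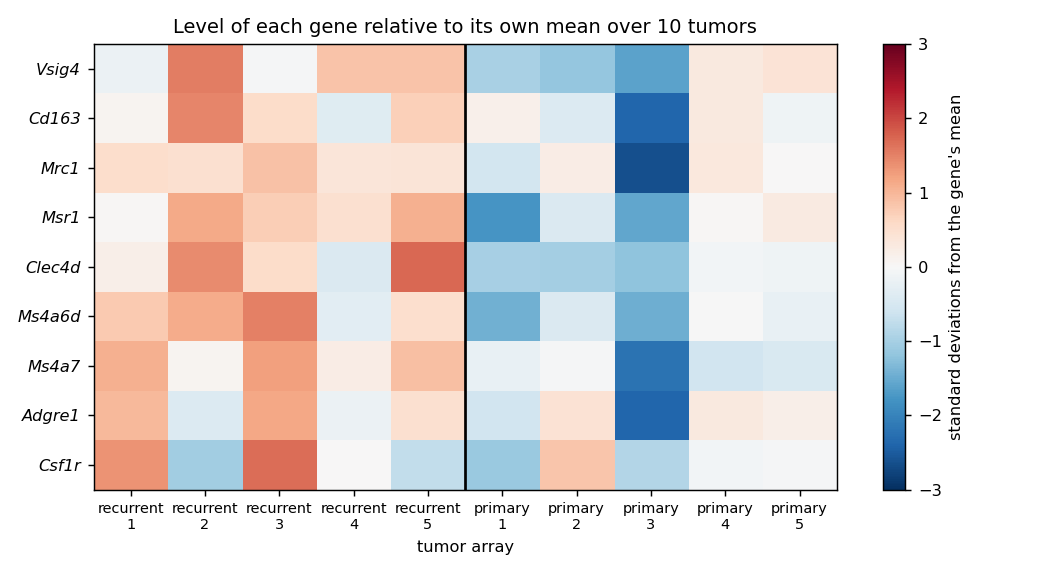
Level of each of the 9 genes in the 10 tumors, in standard deviations from the gene's own mean, with recurrent tumors left of the black line and primary tumors right of it. Primary tumor 3 is the darkest column (mean -1.81) and primary tumor 1 follows (mean -0.83), while Csf1r and Adgre1 fall below their means in recurrence 2, where Vsig4 is highest.

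Against cultured SCC-7 cells, the receptors were higher in the tumors. In 6 of the 9 genes (Vsig4, Cd163, Ms4a7, Clec4d, Msr1 and Adgre1) neither SCC-7 array was above the negative controls, whereas Mrc1, Ms4a6d and Csf1r were detected in both. Those 6 genes passed the filter on dim probes only through the tumors, where they were brighter, so a difference was fixed by the filter and no test against SCC-7 cells is given for any of the 9. In the fit of 3 groups the recurrent tumors were higher than SCC-7 cells by 6.10 (SE 0.33) for Ms4a6d, 5.79 (SE 0.62) for Mrc1 and 3.87 (SE 0.31) for Csf1r. Primary tumors were higher by 5.18 (SE 0.33) for Ms4a6d, 4.75 (SE 0.62) for Mrc1 and 3.67 (SE 0.31) for Csf1r. Both tumor groups shared the 2 SCC-7 arrays.

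For genes not above the controls in SCC-7 cells only a bound can be given. It sets the mean of the tumors over the mean, on each SCC-7 array, of the higher of the probe's own value and the lowest value among detected probes. Recurrent tumors were at least 24.7-fold higher for Ms4a7, 11.6-fold for Adgre1, 10.3-fold for Vsig4, 8.44-fold for Msr1, 4.53-fold for Clec4d and 4.16-fold for Cd163. Primary tumors were at least 11.6-fold higher for Ms4a7, 7.84-fold for Adgre1, 4.17-fold for Msr1, 2.02-fold for Cd163, 1.86-fold for Vsig4 and 1.58-fold for Clec4d. The lowest bounds were those of Vsig4 and Clec4d in primary tumors. All are bounds on group means and do not hold for each tumor. Vsig4 in primary tumors 2 and 3 (5.46 and 4.58) and Cd163 in primary tumor 3 (4.72) lay below the lowest detected values of the SCC-7 arrays (5.71 and 5.67).

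**Figure D5:**
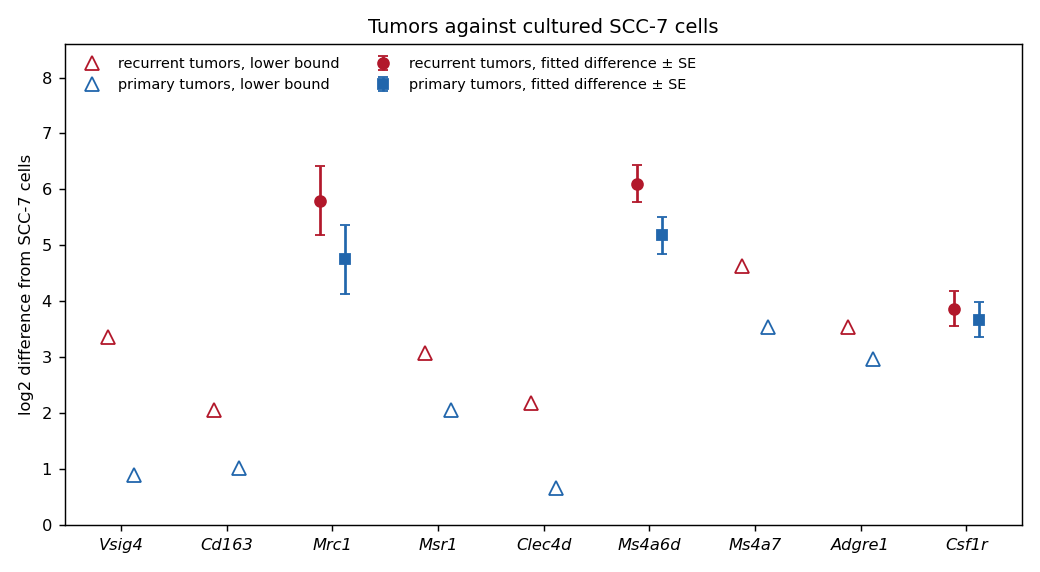
Log2 difference of recurrent tumors (red, left) and primary tumors (blue, right) from SCC-7 cells for each of the 9 genes. Filled symbols with bars are fitted differences ± standard error for the 3 genes detected in SCC-7 cells, from 6.10 for Ms4a6d in recurrent tumors to 3.67 for Csf1r in primary tumors, and open triangles are the log2 of the lower bounds for the other 6, highest for Ms4a7 (24.7-fold in recurrent and 11.6-fold in primary tumors).

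Other genes of the same biology were read from lists, 81 of whose 122 genes had a kept probe. With an adjusted p below 0.05 and a difference of 2-fold or more required, 6.88% of all kept probes were called higher in recurrent tumors (1269, with 930 lower) and 6.67% in primary tumors (1231, with 1057 lower). Median scaling in place of quantile normalization gave 1490 higher and 311 lower in recurrent tumors, and 1362 higher and 367 lower in primary tumors. Of the 81, limma called 46 higher and 2 lower in recurrent tumors than in SCC-7 cells, 44 higher and 4 lower in primary tumors than in the cultured cells, and 0 between recurrent and primary tumors. With the first or the second SCC-7 array left out, 29 and 29 were called higher in recurrent tumors and 27 and 26 in primary tumors. On neither SCC-7 array were 48 of the 81 detected, so these passed the filter through the tumors. The direction of their difference was fixed by the filter, so it is given only as a bound, made as for the receptors. Counts of called genes, here and by list below, include such genes and are no test of them. By the rule of 3 pairs, 2 of the 81 were higher (Cxcl10 and Scara5) and 1 was lower (Scara3).

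General macrophage and myeloid genes were the list closest to the receptors. Of 21 measured, 19 were called higher in recurrent tumors and 17 in primary tumors, each against SCC-7 cells. C1qa, C1qb and C1qc, which encode the subunits of the complement initiator C1q, were higher in recurrent tumors by 5.28, 5.40 and 5.47 and in primary tumors by 4.59, 4.75 and 4.86 (limma, adjusted p at most 4.81e-05). Fcgr2b, the inhibitory Fc receptor, was detected on 1 of 2 SCC-7 arrays and was higher by 5.66 in recurrent and 4.87 in primary tumors (limma, adjusted p = 5.3e-06 and 1.78e-05). Between recurrent and primary tumors the list's median was 0.52 and 19 of the 21 genes had a positive difference, beside a median of 0.03 over all probes. Such counts, here and for the lists below, are a description. The lists were chosen with earlier results known, and their genes were read on the same tumors. The list mean differed by 0.83, -0.17, 1.13, 0.16 and 0.02 in pairs 1 to 5, or by 0.39 on average and 0.21 without pair 3, when 18 of the 21 were positive. Macrophage markers outside the 9 genes were thus present in both tumor groups, at list means of 9.64 to 10.06 in recurrent tumors, 8.92 to 9.89 in primary tumors and 6.29 and 6.30 in SCC-7 cells.

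Csf1, a ligand of Csf1r, was at 8.15 ± 0.44 in recurrent and 7.82 ± 0.93 in primary tumors (SD, n = 5 each) and at 9.57 and 9.53 in SCC-7 cells. It was called lower in primary tumors by limma (difference from SCC-7 cells -1.73, adjusted p = 0.0402), and the difference for recurrent tumors was -1.40 (adjusted p = 0.0834). Il34, for the other ligand, was at 8.59 ± 0.84 in recurrent and 7.94 ± 1.19 in primary tumors (SD, n = 5 each). In SCC-7 cells it was at 9.79 and 9.92, and it was called in no comparison. The difference between recurrent and primary tumors was 0.65 for Il34, higher in 5 of 5 recurrences, and 0.33 for Csf1, higher in 3 of 5. Csf2ra, the GM-CSF receptor subunit, was not above the controls in SCC-7 cells and was at least 11.2-fold higher in recurrent and 8.82-fold in primary tumors. Csf3r, the G-CSF receptor, was likewise at least 2.12-fold higher in recurrent and 1.78-fold in primary tumors. Whether the 2 differences differ from each other was not tested.

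Of 6 macrophage transcription factors measured, 4 were called higher and 1 lower in recurrent tumors, and 5 higher and 1 lower in primary tumors, each against the cultured cells. On neither SCC-7 array were 5 of the 6 above the controls, so the direction of every call of higher was fixed by the filter. Spi1, Irf5, Irf8 and Nr1h3 were among these 5. The 1 called lower, Cebpb, was detected on both SCC-7 arrays and is described further below. Spi1, which encodes PU.1, was at least 3.70-fold higher in recurrent and 3.65-fold in primary tumors, and its difference between recurrent and primary tumors was 0.02. Irf5 and Irf8, regulators of interferon and inflammatory genes, were at least 9.98-fold and 4.71-fold higher in recurrent tumors and 9.84-fold and 7.29-fold in primary tumors. Nr1h3, the oxysterol receptor LXR-alpha, was at least 1.75-fold higher in recurrent and 3.51-fold in primary tumors. The primary means of Irf8 and Nr1h3 rested in part on primary tumor 3, at 10.71 and 10.36. In the other primary tumors they were at most 8.26 and 7.47. The list mean was 9.35 in primary tumor 3 and at most 8.35 in the other tumors.

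Resident and alternatively activated macrophage genes gave 7 called higher and 1 lower in recurrent tumors and 6 higher and 1 lower in primary tumors, of 15 measured. Folr2, the folate receptor of resident macrophages, was higher than in SCC-7 cells by 5.05 in recurrent and 3.99 in primary tumors, and F13a1, coagulation factor XIII A, by 5.51 in recurrent and 4.33 in primary tumors. Mgl2, a galactose-binding lectin, was not above the controls in SCC-7 cells and was at least 22.0-fold higher in recurrent and 22.9-fold in primary tumors. Gas6, a ligand of the TAM receptor kinases, was higher by 4.99 in recurrent and 4.68 in primary tumors. Classically activated genes gave 4 called higher and 0 lower in recurrent tumors and 4 higher and 1 lower in primary tumors, of 10 measured. Cxcl9, a chemokine induced by interferon-gamma, was at least 9.38-fold higher in recurrent and 9.54-fold in primary tumors. The costimulatory genes Cd40 and Cd86 were at least 6.38-fold and 8.91-fold higher in recurrent tumors and 7.53-fold and 9.87-fold in primary tumors. None of these 3 was above the controls in SCC-7 cells. In primary tumor 3 Cxcl9, Cd40 and Cd86 stood at 13.43, 11.73 and 11.06, against at most 8.52, 8.23 and 8.78 in the other primary tumors. The mean of that list was 9.22 in primary tumor 3 and at most 7.67 in the other tumors.

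Of 9 other scavenger receptors, 3 were called higher in recurrent and 4 in primary tumors. Stab1, a receptor of resident macrophages and sinusoidal endothelium, was higher than in SCC-7 cells by 4.07 in recurrent and 3.57 in primary tumors. Cxcl16, a membrane-bound chemokine that takes up oxidised lipoprotein, was higher by 4.63 in recurrent and 4.62 in primary tumors, with 1 of 2 SCC-7 arrays above the controls. Scara3 and Colec12 were above them in neither. Scara3 was at least 2.98-fold higher in recurrent and 6.91-fold in primary tumors. Colec12 was at least 1.20-fold higher in recurrent tumors. Of 9 other C-type lectins, 6 were called higher in recurrent and 5 in primary tumors, among them Clec4n, the fungal receptor Dectin-2. Clec4a3, detected on 1 of 2 SCC-7 arrays, and Clec4n were higher by 4.32 and 4.32 in recurrent tumors and by 3.68 and 3.98 in primary tumors. Clec4a1 and Clec4b1, not above the controls in SCC-7 cells, were at least 9.05-fold and 5.18-fold higher in recurrent tumors and 7.84-fold and 4.08-fold in primary tumors. All 9 of these lectins had a positive difference between recurrent and primary tumors, with a median of 0.34. Their mean differed by 0.78, -0.30, 0.77, 0.20 and 0.08 in pairs 1 to 5, or by 0.30 on average and 0.19 without pair 3, when 7 of the 9 were positive. Other lists leaned less or the other way. Between recurrent and primary tumors the median was -0.12 for classically activated genes (3 of 10 positive). It was -0.06 for other scavenger receptors (4 of 9) and -0.19 for complement genes (2 of 4). It was 0.02 for transcription factors (4 of 6) and 0.29 for CSF1 and related genes (4 of 6). Resident and alternatively activated genes had 0.31 (10 of 15). Of 14 other Ms4a genes only Ms4a8a had a kept probe, and it was not called. Of 4 complement genes measured, Cfp, which encodes properdin, was higher by 4.32 in recurrent and 4.25 in primary tumors. Cfb, complement factor B and not above the controls in SCC-7 cells, was at least 1.91-fold higher in recurrent and 2.63-fold in primary tumors. Its level was 9.12 in primary tumor 3 and at most 6.99 in the other primary tumors. Whether the 2 differences of Cfb, or of Scara3, differ from each other was not tested.

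Genes outside the list were ranked by likeness over the 10 tumors to the mean standardised level of the 9 receptors, among 10337 named genes. The first 10 were Nipa2 (r = 0.96, rho = 0.83), Alox5ap (r = 0.95, rho = 0.88), Nxt2, Blvra, C1qa (r = 0.95, rho = 0.84), Mrps22, Nudt5, Mpp1, Pid1 and Akr1c12. Alox5ap encodes the activating protein of 5-lipoxygenase in leukotriene synthesis, and its level in tumors was between 10.34 and 12.22, against 7.38 and 7.05 in SCC-7 cells. For the others except C1qa and Nipa2, at least 1 SCC-7 array lay within or above the range of the tumors. Without the 2 tumors farthest from the median, primary tumors 3 and 1, r for these 10 genes was between 0.65 and 0.84.

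Closest to Vsig4 alone were 2610001J05Rik (r = 0.97, rho = 0.94), Cbwd1 (r = 0.95, rho = 0.94), Eif2a, Snx7 and Actr1a. Without primary tumor 3 and recurrence 2 their r was between 0.86 and 0.96. Their levels spanned far less than that of Vsig4, for 2610001J05Rik between 6.20 and 7.08 in tumors. The ranks were taken from 10337 genes over 10 tumors, and nothing about shared function is read from them.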

How the data were processed

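Illumina whole genome mouse arrays (WG-6 v2) were run on total RNA of 5 recurrent and 5 primary tumors and of SCC-7 cells in 2 samples. The authors deposited the mean intensity of the beads of each probe, neither background corrected nor normalized, and detection p-values, which were not used here. They also deposited normalized intensity values whose method is not given in the sources used here. These were used as an alternative. Log2 values were computed here by limma 3.58.1 (R 4.3.3): normexp on 943 negative controls with an offset of 16, then quantile normalization of the 12 arrays. A probe counted as detected when under 0.01 of the negative controls were as bright, and 13711 to 17083 probes were detected per array. Probes detected on at least 2 arrays (18454) were kept. The number of arrays, not a read depth, limits precision.

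Gene symbols came from the platform annotation, in which 34773 probes had 1 symbol, 18 several and 10344 none. Of these, 34695 were matched to the RefSeq gene table of GRCm38.p6, and older names were followed to current ones. Promoters came from RefSeq and were used for 6 of the 10 genes. The promoter of Csf1r was left out by choice, and none was listed for Ms4a6d, Msr1 and Adgre1.

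Recurrent and primary tumors were compared by lmFit and eBayes, the animal being a fixed block, the SCC-7 comparisons by a fit of 3 groups with 1 estimate of spread, each with Benjamini-Hochberg adjustment over all kept probes. Only the adjusted p of genes outside the 10 is printed. In the study each animal gave 1 tumor of either kind, and the pairs were matched here by the number in the sample titles. Deviations of paired tumors from their group means correlated at -0.37, 0.03, 0.34, 0.36 and 0.17 across probes, and for 0 recurrences was the correlation highest with the same animal's primary tumor. The scripts were tested on simulated data. Figures were drawn with matplotlib 3.10.9.

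The 10 genes and all gene lists were chosen with earlier results of these data known. All 10 genes are named. From each list up to 4 called genes are named by size of change, or up to 4 by brightness where none is called. Il34 is named besides, as a ligand of Csf1r, and the likeness ranks name 10 and 5 genes. Alternatives were other background, normalization, offset, filter and variance settings, the authors' values, each pair or array left out, other blocks, the methods' t-test and other probes of a gene. No set test was made.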

Additional observations from a re-analysis of the deposited data

Results flagged for a closer look

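In the primary tumors, Cd163 in primary tumor 3 was far from the other 4, at 4.72 where the next lowest was 6.80. Ms4a7 in primary tumor 3 was likewise far from the others, at 8.07 where the next lowest was 9.34. These were 2 of the 18 groups of 5 tumors searched, and chance flags about 1 in 20 groups. Both values belong to the same array, so they are not independent of each other.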

How the results depend on the processing

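The mean difference of each of the 9 receptor genes between recurrent and primary tumors stayed positive under every alternative run, except that of Csf1r without pair 3 (-0.0026). Nothing is read from the sign, since the genes were chosen with this contrast in view and every run used the same arrays. Sizes did change: without pair 3 the difference fell from 0.56 to 0.10 for Adgre1 and from 1.05 to 0.44 for Mrc1. With 2 SCC-7 arrays, a call on 1 of them alone assumes that it varies like the tumors.

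Without the replicate block 0 probes were called higher and 0 lower between recurrent and primary tumors, as with it. With the animal as a random replicate block 1269 probes were called higher in recurrent and 1237 in primary tumors, each against SCC-7 cells. Leaving out 1 pair gave 0 to 3 probes called higher. The rule of 3 pairs gave 185 probes higher and 63 lower. It gave 90 and 26 without background correction, 92 and 25 with the authors' values and 95 and 30 with an offset of 50. With 1 pair left out it gave 84 to 133 higher and 25 to 40 lower, and 2 to 4 of the receptor genes. It still asked for 3 of the remaining pairs, so these counts could not rise. By the methods' t-test 292 probes were higher and 131 lower at an unadjusted threshold, with 0 left after adjustment.

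Probes called higher in primary tumors against SCC-7 cells numbered 820 with the authors' values and 532 to 1402 with 1 pair or SCC-7 array left out. Probes called lower there numbered 560 without background correction, 367 with median scaling, 517 with the authors' values, 635 with an offset of 50, and 251 to 1069 with 1 pair or array left out. For recurrent tumors 560 to 1507 were higher with 1 pair or array left out, and 470, 311, 419 and 539 were lower under those 4 settings and 210 to 1022 with 1 left out. Median scaling moved the median of all probes against SCC-7 cells to 0.08 for primary and 0.13 for recurrent tumors, where quantile normalization gave -0.15 and -0.11.

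Genes of the lists called higher numbered 26 to 45 in primary and 29 to 48 in recurrent tumors with 1 pair or array left out. Those called lower numbered 2 in primary tumors under median scaling and with no filter on dim probes, 2 to 5 with 1 left out, and 0 to 3 in recurrent tumors. The cause of these shifts was not tested.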

Other observations

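The genes of the lists that were lower in tumors than in SCC-7 cells are named here after their values were seen. Gpnmb, a glycoprotein of macrophages and pigment cells, was at 10.76 ± 0.98 in recurrent and 9.89 ± 0.67 in primary tumors (SD, n = 5 each), against 14.01 and 14.04 in SCC-7 cells. By limma its difference from SCC-7 cells was -3.26 in recurrent tumors (adjusted p = 0.00352) and -4.14 in primary tumors (adjusted p = 0.000728). Between recurrent and primary tumors its difference was 0.87 (SE of the limma fit 0.18, adjusted p = 0.933 by limma), and it was higher in 5 of 5 recurrences. Cebpb, a transcription factor of myeloid and many other cells, was likewise lower in recurrent (difference -1.16) and primary tumors (difference -1.40). Socs3, a feedback inhibitor of cytokine signalling, was called lower in primary tumors only (difference -1.05, adjusted p = 0.0351 by limma), with -0.93 (adjusted p = 0.0558) in recurrent tumors.

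The scavenger receptor gene Marco correlated with the mean of the 9 receptors at r = -0.85 over the 10 tumors, Nr1h3 at -0.83, the phosphatidylserine receptor gene Timd4 at -0.83 and Irf8 at -0.79. Without primary tumor 3 the values were -0.57 for Marco, -0.48 for Nr1h3, -0.47 for Timd4 and -0.26 for Irf8, so they rested largely on that tumor. Marco was detected in 0 recurrent and 2 primary tumors. These were picked after their values were seen and are a description of the same 10 tumors. The 5 mast cell genes were above the negative controls on neither SCC-7 array, so they passed the filter only through the tumors and no call is given. Their list mean was 6.86 to 10.44 in recurrent tumors, 6.65 to 11.99 in primary tumors and 4.49 and 4.43 in SCC-7 cells.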
